A study of Homo sapiens with 66 samples.

Results

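Gene expression was compared between AMO1 cells exposed for 24 h to carfilzomib (CFZ) and AMO1 cells exposed for 24 h to the solvent DMSO. AMO1 is an established human multiple myeloma line, that is, a line of malignant plasma cells. The comparison was chosen by treatment and time alone and uses 6 of the 66 RNA sequencing libraries of the study, 3 with 10 nM CFZ (a dose absent from the sample labels) and 3 with 0.1% DMSO. Both groups were unmodified cells of the same line, labelled wild type, with no other agent. For reference, the CFZ and DMSO libraries of 6 h are set beside them where stated. So are the 24 h libraries with 1 µM NCP26 or 1 µM halofuginone (HFG), inhibitors of prolyl-tRNA synthetase (ProRS). The 24 h libraries with 1 µM NCP22, the ProRS inhibitor from which NCP26 was developed, are the reference of an alternative comparison. They are thus a treated group, which differed from DMSO at 0 of 10781 genes (edgeR, adjusted p under 0.05). That 0 does not show that the groups were alike. The gene OR1N1, for example, had a log2 fold change of 2.17 for NCP22 against DMSO with an adjusted p of 0.54 in the edgeR test. The study describes its triplicates in general as biological where nothing else is specified, and its RNA sequencing conditions as done in triplicate. The labels do not say whether these replicates were separate cultures. The p-values therefore measure the spread between these libraries, which may be technical. All of it is from 1 cell line at 1 dose.

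The proteasome is the protease that removes proteins tagged with ubiquitin. A 20S barrel carries the cutting sites, among them PSMB5, the subunit that CFZ blocks covalently, and a 19S cap binds ubiquitin chains and unfolds the substrate. Plasma cells make and fold large amounts of immunoglobulin, and myeloma is treated with proteasome inhibitors. Unfolded cytosolic protein frees the factor HSF1 to transcribe chaperone genes, while loss of proteasome capacity activates NRF1 (gene NFE2L1), which raises the genes of the proteasome subunits. Other programmes known to answer proteotoxic stress are the unfolded protein response of the endoplasmic reticulum (ER), the integrated stress response (ISR) with its factor ATF4, and the antioxidant response under NRF2 (gene NFE2L2).

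The deposited values were whole-number counts per gene without normalization, with 2823149, 2387603 and 2545675 counts in CFZ replicates 1 to 3 and 2712083, 4270102 and 5005629 in DMSO replicates 1 to 3. Levels are given in CPM, counts divided by the TMM-adjusted size of the library and not by gene length, so that they compare libraries and not genes. SE is the standard error of a log2 fold change, and adjusted p-values are those of edgeR. All 10 plasma cell markers examined had a mean of at least 5 CPM, and their summed level was 8710 to 9250 CPM with DMSO and 5360 to 7040 CPM with CFZ. At an adjusted p under 0.05, 2 of them were higher (20%, beside 13.1% of all tested genes) and 1 lower (10%, beside 14%), with a median log2 fold change of −0.16. The lower one was SDC1 (−2.12). Without CFZ replicate 2 the counts were 3 and 5. Markers of other cell types were near 0. Summed over each list, 8 T and NK cell markers reached at most 4.67 CPM, 8 monocyte markers 2.04 CPM, 6 stromal markers 10.6 CPM, 5 epithelial markers 9.03 CPM, 5 erythroid markers 0.406 CPM and 7 B cell markers 26.5 CPM in any library, with CD22, CD3D, CD5, S100A8, S100A9, PDGFRB, HBA1 and HBA2 at 0 throughout. In bulk RNA, fewer cells that express a gene and less of its RNA per cell cannot be told apart. Mitochondrially encoded transcripts took 5.26% to 5.74% of counts with CFZ and 4.34% to 4.49% with DMSO.

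One CFZ library stood apart from the others. Across genes, the log2 CPM of CFZ replicates 1 and 3 correlated at 0.98, those of replicates 1 and 2 at 0.938 and those of replicates 2 and 3 at 0.931, whereas DMSO replicates reached 0.986 to 0.989. The counts of CFZ replicate 2 differed from those of replicates 1 and 3 by 24.9 and 29.9 times the Poisson expectation per gene, against 3.47 between replicates 1 and 3 and 1.3 to 2.01 between DMSO libraries. In CFZ replicate 2, 74 genes at 10 CPM or more lay over 3-fold above both other CFZ libraries, against 0 in replicate 1 and 7 in replicate 3. These 74 genes held 4.69% of its counts, and summed to 7799, 45340 and 4105 CPM in CFZ replicates 1 to 3 and to 4541 to 6110 CPM with DMSO. They were also high in libraries without CFZ. The sum was 22430 CPM in HFG replicate 1 of 24 h, 17880 CPM in HFG replicate 2 of 6 h and 14160 CPM in NCP22 replicate 1 of 24 h. In the same library ribosomal protein transcripts were low, with a median log2 difference from the DMSO mean of −1.12, against −0.19 and −0.12 in replicates 1 and 3, and the 2631 genes with the longest transcripts had a median of 0.19, against −0.03 and −0.06.

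**Figure D1:**
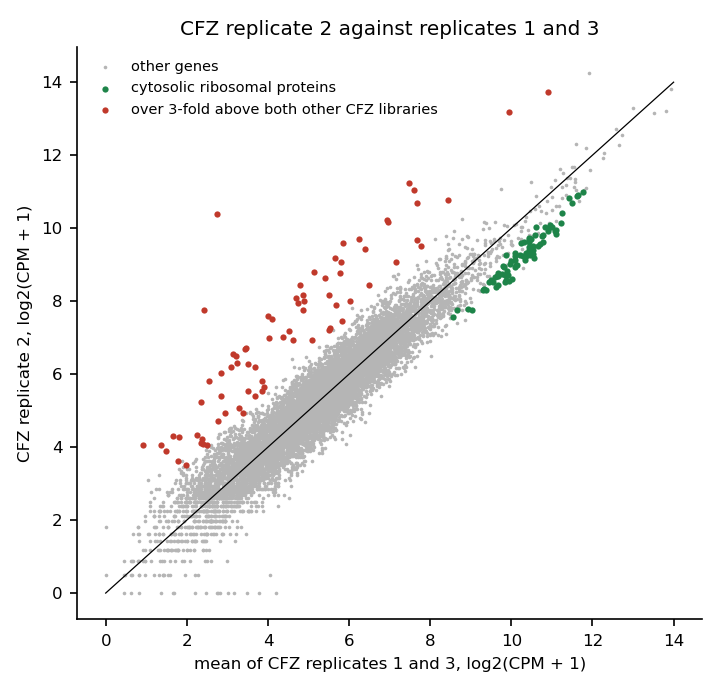
Level of each tested gene in CFZ replicate 2 (y axis, log2(CPM + 1)) against the mean of CFZ replicates 1 and 3 (x axis, same scale), with the line of equality. The 74 genes over 3-fold above both other CFZ libraries lie in a band above the line, OR1N1 and KCNK2 among them.

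The sample numbers in the column names place CFZ replicate 1 in the same set as the 24 h DMSO libraries, and CFZ replicates 2 and 3 in the set of the other 24 h treatments. What a set stands for is not stated. In a fit with treatment and set, CFZ replicates 2 and 3 differed from replicate 1 at 0 of 10674 genes (0%) in the edgeR fit, with 301 genes at an unadjusted p under 0.05 and 1 gene called by DESeq2. The difference between replicates 2 and 3, the largest within a group, enters the spread of this fit. The test could therefore call little, and the 0 does not show that the sets are alike. The doubtful library is one member of the second set, and replicate 3, the other member, lay close to replicate 1. Counts over the gene lists are therefore given with all libraries and again without CFZ replicate 2.

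With all 6 libraries, 2886 of 10674 genes were called, or 27%, of which 1394 (13.1%) were higher and 1492 (14%) lower with CFZ. The change was at least 2-fold for 571 of the higher and 577 of the lower genes. The CFZ and DMSO values did not overlap in 2882 of the 2886 called genes, and in 4969 (46.6%) of all tested genes. Without CFZ replicate 2 the count was 5220 of 10820 genes (48.2%), 2529 higher (23.4%) and 2691 lower (24.9%). All but 19 of the 2886 genes were called again in the same direction without that library, 14 of these 19 having been called higher. The count fell to 1710, 1537 and 1604 without DMSO replicate 1, 2 or 3. Many calls were thus lost with a DMSO library fewer, whichever it was, and the cause of this was not tested. Of the genes named below, ASNS, BCL2, BCL2L1, BCL2L11, BMF, BUB1B, BUB3, COL12A1, DERL1, EHHADH, FAM110B, FTH1, IFIT2, KCNK2, MT-ND2, NBR1, NFE2L2, NGLY1, OPTN, OR1N1, PGK1, PIM2, PSMA1, PSMB5, PSMB8, PSMD12, PSME4, PSMG2, RAD9B, RNF222, RPL26, AGAP4 and ENSG00000256515 lost their call without at least 1 library, with adjusted p up to 0.164. With a term for the set, a fit in which the CFZ effect rests on replicate 1, the count was 1243. In that fit most of the same named genes lost their call, and so did BIK, CAT, CCND1, DERL2, GABARAP, GCLM, MCL1, NPLOC4, ORC6, PCNA, PSMB9, SLC7A11, TRAF1 and WIPI1, with adjusted p from 0.0504 to 0.12. The count was 4323 for CFZ replicate 1 alone against DMSO, a fit in which the lone library is taken to vary like the DMSO libraries, and 1633 for CFZ replicates 2 and 3 against the NCP22 libraries of their own set.

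Genes of cytosolic chaperones held the largest rises. HSPA6, an HSP70 gene that is nearly silent without stress, was at 2.22, 2.13 and 1.61 CPM in the DMSO libraries and at 404, 279 and 250 CPM in the CFZ libraries. All CFZ values lay far above all DMSO values, and the log2 fold change was 7.29 (SE 0.28, adjusted p = 1.0e-05), or 157-fold. HSPA1B, the main inducible HSP70 gene, was at 64.4, 64.7 and 56.1 CPM with DMSO and at 2760, 2657 and 2531 CPM with CFZ, a log2 fold change of 5.42 (SE 0.15, adjusted p = 1.7e-06). HSPA1B and HSPA1A are near copies of each other, with 74.5% and 76% of their 31-base words also found in other genes. How the reads were divided between them is therefore uncertain. For HSPA6 the share was 57.1%, and which other genes hold those words was not examined. CRYAB, which encodes the small heat shock protein alphaB-crystallin, was at 0, 0.237 and 0.202 CPM with DMSO and at 13.8, 9.64 and 5.11 CPM with CFZ, too few counts in DMSO for a fold.

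DNAJB1, the HSP40 partner that hands substrates to HSP70, was at 79.9, 79.2 and 75.1 CPM with DMSO and at 589, 554 and 595 CPM with CFZ. The replicates of each group lay close together, and the log2 fold change was 2.89 (SE 0.11, adjusted p = 1.0e-05). HSPH1, the nucleotide exchange factor HSP110, rose from 127, 120 and 137 CPM to 770, 702 and 797 CPM, by 2.56 on the log2 scale (SE 0.12). HSP90AA1, the stress-inducible HSP90, rose from 561, 543 and 612 CPM to 3038, 2231 and 2970 CPM, by 2.26 (SE 0.16), the lowest value being that of replicate 2. BAG3, which couples HSP70 to autophagy, rose by 1.68, the constitutive HSPA8 by 1.69 and the small heat shock protein HSPB1 by 1.49. Of 30 tested genes of the heat shock and cytosolic chaperone list, 22 were called higher and 0 lower, with a median log2 fold change of 0.92 beside 0.01 over all tested genes. Without CFZ replicate 2, 28 were higher and 0 lower, with a median of 1.09. The 8 members not called with all libraries included the factors HSF1 (0.34) and HSF2 (−0.41) and the HSP90 partners CDC37 (0.38) and FKBP4 (0.20). The 8 genes of TRiC, the ring chaperonin for actin and tubulin, had a median of −0.01 with 0 called, and 4 were called higher without CFZ replicate 2.

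HSF1 binds heat shock elements, runs of the letters GAA and TTC in alternating direction. The promoters of the 4 called chaperone genes with the largest rises that hold such a core within 140 bases upstream of the transcription start are shown because they carry the largest change of the comparison. Sequences are from RefSeq on GRCh38.p14, read 5′ to 3′ on the strand of the gene, at chr1:161524400-161524539 (+) for HSPA6, chr6:31827598-31827737 (+) for HSPA1B, chr19:14518398-14518537 (−) for DNAJB1 and chr14:102087045-102087184 (−) for HSP90AA1. Capitals mark the letters that match GAANNTTC or TTCNNGAA, where N is any base. 
HSPA6: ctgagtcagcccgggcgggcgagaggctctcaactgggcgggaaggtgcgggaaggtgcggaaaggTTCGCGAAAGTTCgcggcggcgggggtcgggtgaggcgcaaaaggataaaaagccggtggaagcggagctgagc
HSPA1B: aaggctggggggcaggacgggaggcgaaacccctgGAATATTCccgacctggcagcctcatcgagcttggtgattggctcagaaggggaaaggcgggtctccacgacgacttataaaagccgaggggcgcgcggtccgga
DNAJB1: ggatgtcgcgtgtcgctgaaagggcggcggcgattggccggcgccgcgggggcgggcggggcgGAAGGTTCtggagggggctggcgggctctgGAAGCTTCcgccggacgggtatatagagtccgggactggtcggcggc
HSP90AA1: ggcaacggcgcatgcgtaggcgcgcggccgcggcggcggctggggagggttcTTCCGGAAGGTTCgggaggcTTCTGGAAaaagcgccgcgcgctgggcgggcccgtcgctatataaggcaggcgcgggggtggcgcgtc
In HSPA6 the cores start at −74 and −69 and overlap, in HSPA1B 1 core starts at −105, in DNAJB1 cores start at −77 and −47, and in HSP90AA1 at −88, −83 and −68, counted from the transcription start. HSPH1, which rose more than HSP90AA1, holds 0 cores in the same window. Searched over 250 bases upstream on both strands, such a core in either arrangement was found in 14 of the 21 called chaperone genes with a RefSeq promoter (66.7%), in 15 of 27 tested list members (55.6%), in 11.6% of tested genes and in 14% of all 27305 genes with a promoter. It was found in 2 of 18 genes of the 19S cap (11.1%) and 1 of 9 of the 20S barrel (11.1%). A match describes the letters only and is no evidence that a factor was bound.

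**Figure D2:**
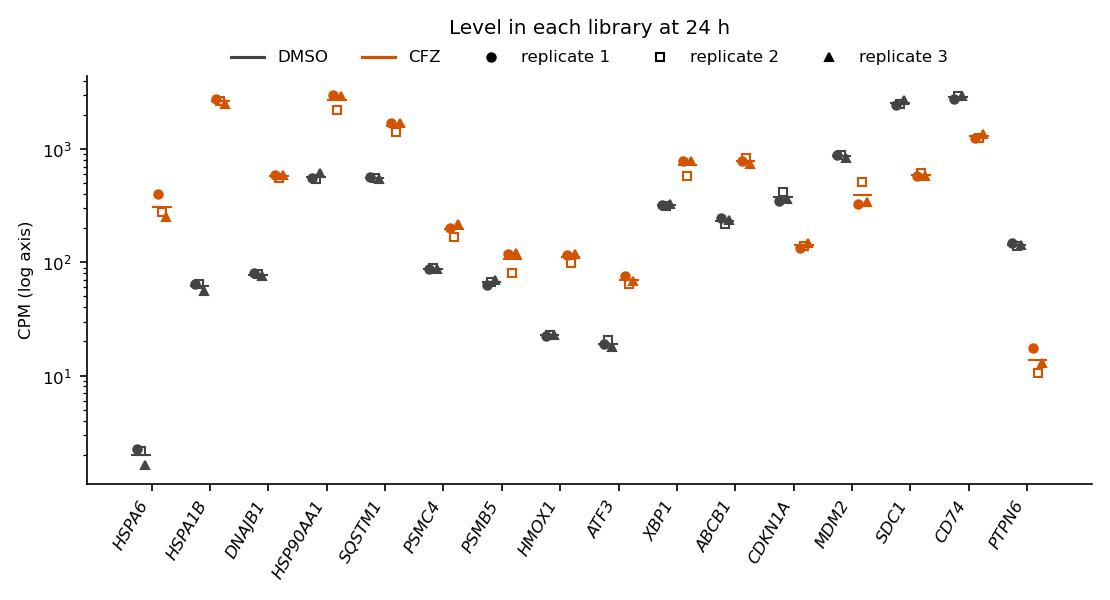
Level of selected genes in each of the 6 libraries at 24 h (CPM, log axis), with DMSO and CFZ replicates as separate points. CFZ points lie above DMSO points for chaperone and proteasome genes and below them for SDC1, CDKN1A and PTPN6, and CFZ replicate 2 is marked on its own.

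Genes of the 19S cap rose together, whereas those of the 20S barrel depended on the library. Of 19 tested genes of the cap, 15 were called higher and 0 lower, with a median log2 fold change of 0.66 (18 higher and 0 lower, with a median of 0.79, without CFZ replicate 2). Without DMSO replicate 1, 2 or 3 the count was 6, 6 and 7, and without CFZ replicate 1 or 3 it was 8 and 9. PSMC4, an ATPase of the cap, was at 86.6, 88.7 and 87.4 CPM with DMSO and at 200, 167 and 220 CPM with CFZ, without overlap, a log2 fold change of 1.16 (SE 0.12, adjusted p = 4.8e-04). PSMD11, PSMD2 and PSMD13, structural subunits of the cap, each rose by 0.86. Of the 13 tested genes of the 20S barrel, 3 were called higher (23.1%, beside 13.1% of all tested genes), PSMB2 (0.94), PSMB5 (0.67) and PSMA1 (0.56), and 0 lower. Their median was 0.46 over all replicates, and −0.18 in CFZ replicate 2 against 0.56 and 0.67 in replicates 1 and 3. Without replicate 2, 12 of the 13 were called higher, and without any other library 1 or 2. PSMB5, the target of CFZ, was at 63.6, 67.1 and 70.5 CPM with DMSO and at 119, 81.3 and 121 CPM with CFZ. All 3 CFZ values were above all DMSO values, by the least in replicate 2, and the call (adjusted p = 0.016) was lost in 7 of 17 alternative analyses, with adjusted p up to 0.123.

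Of the interferon-inducible genes PSMB8, PSMB9, PSMB10, PSME1 and PSME2, the first pair were called lower, and PSMB10 (−0.21, with 34% of its 31-base words shared), PSME1 (−0.22) and PSME2 (0.03) were not called. PSMB9, an exchange subunit of the immunoproteasome, was at 57.7, 64.5 and 66.6 CPM with DMSO and at 29.3, 14.2 and 33 CPM with CFZ, a fall of 1.30 on the log2 scale (SE 0.25, adjusted p = 0.0068), and PSMB8 fell by 0.69. With a term for the set the adjusted p was 0.107 for PSMB9 and 0.314 for PSMB8. Of the 17 genes for immunoproteasome subunits, activators and assembly factors, 1 was higher (the activator PSME4, 0.52) and 3 were lower (17.6%, beside 14% of all tested genes), PSMG2 (−0.57) being the third, and without CFZ replicate 2 these counts were 6 and 3. Without DMSO replicate 1, 2 or 3 the lower count was 2, 1 and 1, and without DMSO replicate 2 or 3 the higher count was 0. POMP, which assists barrel assembly, was at 0.16 (adjusted p = 0.56) and NFE2L1 at −0.37 (adjusted p = 0.064), and neither was called.

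Several factors that deliver ubiquitinated protein rose. SQSTM1, the receptor p62 that gathers ubiquitinated cargo for autophagy, was at 564, 561 and 548 CPM with DMSO and at 1699, 1420 and 1705 CPM with CFZ, a log2 fold change of 1.53 (SE 0.12). The groups were far apart, with replicate 2 the lowest CFZ value. The segregase VCP rose by 0.81, and its cofactors NPLOC4 and UFD1 by 1.26 and 0.89. In the list of ubiquitin, VCP and aggregate clearance genes 14 of 33 were higher and 5 lower (15.2%, near the 14% of all tested genes). The median was 0.22, and the counts were 19 and 7 without CFZ replicate 2. The lower count was 2 without CFZ replicate 1 or any 1 of the DMSO libraries. The 5 lower genes were the autophagy receptors NBR1 (−0.36) and OPTN (−0.50), the autophagosome genes GABARAP (−0.61, with 34.3% of its 31-base words shared) and WIPI1 (−0.64), and NGLY1 (−0.45), the deglycosylase that processes NRF1. GABARAPL1, a relative of GABARAP, rose by 1.09.

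Oxidative and immediate early genes rose in part. HMOX1, haem oxygenase, was at 22.2, 23 and 23 CPM with DMSO and at 117, 98.5 and 118 CPM with CFZ, a log2 fold change of 2.29 (SE 0.12, adjusted p = 3.9e-05). Of 25 tested NRF2 and redox genes 8 were higher (32%, beside 13.1% of all tested genes). Among them were SRXN1 (1.14, with 90.6% of its 31-base words shared with another gene) and GCLM (0.92), a subunit of the enzyme that makes the glutathione precursor. The 3 lower members (12%, near the 14% of all tested genes) were NFE2L2 (−0.45), the ferritin heavy chain FTH1 (−0.49) and catalase CAT (−0.73). Without CFZ replicate 2 the counts were 14 and 6, and without DMSO replicate 1, 2 or 3 the higher count was 5, 6 and 4 and the lower 2, 2 and 1. The letters TGACNNNGC, the core of the antioxidant response element, were found in 5 of 18 promoters of this list (27.8%), in 15.9% of tested genes and in 13.2% of all promoters. This share was not particular to the list. It was 35% for p53 targets, 28.1% for ATF4 and ISR genes, 27.8% for the 19S cap, 25.9% for heat shock genes and 11.1% for the 20S barrel. JUN, a subunit of AP-1, was at 36.3, 42.4 and 38 CPM with DMSO and at 186, 249 and 197 CPM with CFZ, a log2 fold change of 2.43 (SE 0.15). Of 21 AP-1 and immediate early genes 11 were higher and 1 lower (11 and 1 also without CFZ replicate 2, and 7 higher without DMSO replicate 1 or 2). The lower gene was KLF2, a factor of quiescent lymphocytes, which fell by 2.12.

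ER stress and ISR genes were not raised as groups at 24 h. HSPA5, the ER chaperone BiP, was at 1102, 1118 and 1145 CPM with DMSO and at 1361, 984 and 1359 CPM with CFZ. The groups overlapped through CFZ replicate 2 alone, and the log2 fold change was 0.14 (SE 0.15, adjusted p = 0.53). Of 33 ER chaperone and unfolded protein response genes 2 were higher (6.06%, beside 13.1% of all tested genes) and 7 lower (21.2%, beside 14%). The median was −0.08. Without CFZ replicate 2 these counts were 11 and 12, in a fit that called 23.4% of all tested genes higher and 24.9% lower. Without DMSO replicate 1, 2 or 3 they were 1 and 3, 1 and 3, and 1 and 4, and without CFZ replicate 1 they were 1 and 4. XBP1, the factor that drives secretory capacity in plasma cells, was at 322, 313 and 327 CPM with DMSO and at 792, 582 and 790 CPM with CFZ, a rise of 1.17 (SE 0.14), which does not tell its spliced from its unspliced form. The lower genes included SEL1L (−0.75), DERL2 (−0.67) and DERL3 (−0.95), parts of the machinery that exports misfolded protein from the ER, while DERL1 rose by 0.45.

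Of 39 tested ATF4 and ISR genes 8 were higher and 8 lower (20.5% each, beside 13.1% and 14% of all tested genes), with a median of −0.11. Without CFZ replicate 2 the counts were 11 and 14, with a median of −0.04. That fit called 23.4% of all tested genes higher and 24.9% lower. Without any 1 DMSO library 5 members were higher. ATF3 was at 18.9, 20.6 and 17.8 CPM with DMSO and at 75.6, 64.5 and 69.1 CPM with CFZ, a log2 fold change of 1.87 (SE 0.13, adjusted p = 7.9e-05). CBS and SLC7A11, genes of cysteine supply, rose by 1.42 and 1.17, while ASNS, asparagine synthetase, fell by 0.50 (35.5% of the 31-base words of CBS and 48.4% of those of ASNS occur in other genes) and MTHFD2, a mitochondrial folate enzyme, by 1.13. DDIT3, the factor CHOP, was at 88.1, 82 and 79.2 CPM with DMSO and at 105, 54.1 and 89.2 CPM with CFZ. The groups overlapped and the CFZ values spread widely around a log2 fold change of 0.00 (SE 0.21, adjusted p = 0.99). TRIB3 (−0.12, adjusted p = 0.52), CHAC1 (0.10, adjusted p = 0.80) and ATF4 itself (−0.36, adjusted p = 0.067) were not called.

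Targets of p53 were lower in all 3 CFZ libraries. Of 27 tested members 20 were called lower and 0 higher, with a median of −0.82 over all replicates and of −0.93, −0.90 and −0.87 in replicates 1 to 3. Without CFZ replicate 2, 22 were lower and 0 higher. CDKN1A, the cyclin-dependent kinase inhibitor p21, was at 350, 422 and 367 CPM with DMSO and at 134, 140 and 150 CPM with CFZ. The values did not overlap, and the gene fell by 1.43 on the log2 scale (SE 0.12, adjusted p = 1.4e-04). MDM2, which targets p53 to the proteasome, was at 896, 886 and 829 CPM with DMSO and at 326, 510 and 343 CPM with CFZ, a fall of 1.15 (SE 0.18). SESN1 fell by 1.81, DDB2, a damage sensor, by 1.84, and CMBL by 3.21. Members not called included PLK3 (0.44) and BTG2 (−0.27).

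Among 31 genes of the BCL2 family, death receptors and caspases, 2 were higher (6.45%, beside 13.1% of all tested genes) and 9 lower (29%, beside 14%). Both pro- and anti-apoptotic genes were on the lower side. Without CFZ replicate 2 the counts were 6 and 9, near the shares of all tested genes in that fit (23.4% higher and 24.9% lower). Without DMSO replicate 1 or 2 the lower count was 4, and without DMSO replicate 2 or 3 the higher count was 0. MCL1, an anti-apoptotic factor on which myeloma cells depend, was at 1727, 1747 and 1705 CPM with DMSO and at 1103, 1105 and 1096 CPM with CFZ, a fall of 0.65 (SE 0.11, adjusted p = 0.0035), and BCL2 fell by 0.54. The pro-apoptotic BAX (−1.36), BBC3 (−1.11), BCL2L11 (−0.62) and BIK (−1.92) also fell. BCL2L1, the gene of BCL-XL, rose by 0.53 (adjusted p = 0.017) and the pro-apoptotic BMF by 0.64. PMAIP1, which encodes NOXA, was at 0.34 (adjusted p = 0.22). Within the second set of libraries, against NCP22, the adjusted p was 0.0753 for MCL1, 0.0664 for BCL2, 0.0927 for BCL2L11 and 0.206 for BCL2L1.

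Interferon-stimulated genes split. RSAD2, which encodes the antiviral enzyme viperin, was at 1.11, 0 and 0 CPM with DMSO and at 13.4, 11.7 and 10.6 CPM with CFZ, too few DMSO counts for a fold. IFIT2 and IFIT3 rose by 2.46 each and MX1 by 1.60, all from low levels. IRF1, a factor induced by interferon, fell by 1.03. In all 8 of 24 were higher (33.3%, beside 13.1% of all tested genes) and 3 lower (12.5%, near the 14% of all tested genes). The counts were 9 and 4 without CFZ replicate 2, and 5 were higher without DMSO replicate 3. Of 12 tested NF-kB genes 2 were higher (16.7%), NFKBIA (0.84) and TRAF1 (0.59), and 1 was lower (8.33%), the deubiquitinase gene TNFAIP3 (−0.88). Over all tested genes 13.1% were higher and 14% lower, so this list did not stand out with all libraries. Without CFZ replicate 2 its counts were 5 and 2.

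Some genes of the cell cycle were lower, by amounts that varied widely within each list. In the S-phase list 12 of 42 genes were lower (28.6%, beside 14% of all tested genes) and 1 higher (2.38%, beside 13.1%). The median was −0.19, with ORC6 (−1.24), TYMS (−1.06) and PCNA (−0.97) among the lower. Without CFZ replicate 2 the counts were 17 and 4, in a fit that called 24.9% of all tested genes lower and 23.4% higher. In the mitosis list 17 of 47 were lower (36.2%) and 3 higher (6.38%), with a median of −0.24, and 24 and 7 without CFZ replicate 2. AURKB, the kinase of the chromosomal passenger complex, was at 45.5, 52.9 and 56.1 CPM with DMSO and at 20.9, 17.6 and 21.2 CPM with CFZ, a fall of 1.38 (SE 0.15). TOP2A fell by 0.97, whereas BUB1B and BUB3, genes of the spindle checkpoint, rose by 0.52 and 0.49, and PLK1 (0.31, adjusted p = 0.15) and CCNB1 (0.20, adjusted p = 0.32) were not called. Without any 1 of the DMSO libraries 4 to 6 mitosis genes and 5 or 6 S-phase genes were called lower and 0 higher. Those fits called 1537 to 1710 genes in all, against 2886 with all libraries. Without CFZ replicate 1 the lower counts were 7 and 8. Of 8 tested replication-dependent histone genes, whose transcripts lack the poly(A) tail that the libraries select, 2 were lower (25%, beside 14% of all tested genes) and 0 higher. The counts were the same without CFZ replicate 2, and 1 was lower without any 1 DMSO library.

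Metabolic genes were mostly lower where they moved. Of 29 genes of glycolysis and hypoxia 18 were lower and 1 higher (median −0.47; 22 and 2 without CFZ replicate 2). HK1, a hexokinase, was at 47.7, 45.8 and 38.4 CPM with DMSO and at 12.4, 22.6 and 11 CPM with CFZ, a fall of 1.52 (SE 0.25). The glucose transporter gene SLC2A3 fell by 1.35 and PGK1 by 0.53, while ADM, a hypoxia-responsive peptide hormone, rose by 1.30. Without CFZ replicate 1, or without any 1 DMSO library, 7 to 9 members were called lower. Of 24 sterol synthesis genes 6 were lower (25%, beside 14% of all tested genes) and 0 higher, with INSIG1 (−1.12) and HMGCS1 (−1.05) among the lower. Without CFZ replicate 2 the counts were 7 lower and 3 higher, in a fit that called 24.9% of all tested genes lower and 23.4% higher.

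The count of ribosomal protein genes called differed with and without the doubtful library. Of 75 tested, 4 were called lower (5.33%, beside 14% of all tested genes) and 0 higher with all libraries (median −0.40). Without CFZ replicate 2, 41 were lower and 4 higher, although the median was then only −0.16. That fit called 24.9% of all tested genes lower and 23.4% higher. Without any 1 DMSO library 0 were lower. RPL26 was at 1684, 1790 and 1711 CPM with DMSO and at 1081, 487 and 1114 CPM with CFZ, the value of replicate 2 being far below the rest. Of 34 ribosome biogenesis genes 5 were called higher (14.7%, near the 13.1% of all tested genes), with RRP12 at 1.23, and 0 lower (19 and 2 without CFZ replicate 2, and 1 to 3 higher without any 1 of the other libraries). Of the 13 mitochondrially encoded transcripts 5 were higher (38.5%, beside 13.1% of all tested genes) and 0 lower. The counts were 10 and 1 without CFZ replicate 2, and 1 or 2 were higher without any 1 DMSO library. MT-ATP8 rose by 0.72 and MT-ND2 by 0.65. Of their 31-base words 44.6% and 56.9% occur in other genes.

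Genes that mark plasma cells and myeloma were divided. SDC1, the surface proteoglycan CD138 by which plasma cells are sorted, was at 2466, 2526 and 2728 CPM with DMSO and at 576, 614 and 586 CPM with CFZ. The groups lay far apart, and the gene fell by 2.12 on the log2 scale (SE 0.12, adjusted p = 4.1e-05). Other surface genes moved both ways. LY9 fell by 2.57 and FCRL5 by 1.84, while SLAMF7, the antigen of an antibody used in myeloma, rose by 0.74 and ITGB7, an integrin chain, by 1.10. TENT5C, a poly(A) polymerase gene often mutated in myeloma, rose by 1.07. Of the transcription factors of myeloma cells, XBP1 was called higher (1.17). Not called were MYC (−0.08, adjusted p = 0.56), IRF4 (−0.20, adjusted p = 0.26), PRDM1 (−0.05, adjusted p = 0.84), TCF3 (−0.07, adjusted p = 0.64) and POU2AF1 (−0.12, adjusted p = 0.60). The value of POU2AF1 ran from −0.30 to −0.02 with single libraries left out, and it was called in 2 of 17 alternative analyses. Scaled with the 6 h libraries, it was at 528.5, 742.1 and 546.6 CPM with CFZ and at 660.7 to 670.7 CPM with DMSO at 24 h. Replicate 2 thus lay above the DMSO range and replicates 1 and 3 below it. TNFRSF17, the gene of BCMA, was not called either (−0.23, adjusted p = 0.50). The kinase gene PIM2 (−0.56) and the cyclin gene CCND1 (−2.69) were called lower. Without CFZ replicate 2, IRF4 (−0.29) and PRDM1 (−0.24) were called lower. In all 5 of 40 members were higher (12.5%, near the 13.1% of all tested genes) and 17 lower (median −0.33), and 9 and 27 without CFZ replicate 2.

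Among 6 tested drug efflux transporters 1 was called higher (16.7%, near the 13.1% of all tested genes) and 0 lower, so the list did not stand out. Without CFZ replicate 2 the counts were 1 and 1. The member called with all libraries was ABCB1, the efflux pump P-glycoprotein. It was at 245, 218 and 235 CPM with DMSO and at 786, 829 and 742 CPM with CFZ, without overlap, a log2 fold change of 1.76 (SE 0.11, adjusted p = 6.2e-05), and between 1.69 and 1.80 within each set and with each library left out.

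The 10 largest rises (called, at least 5 CPM on average, no overlap) were HSPA6, HSPA1B, RSAD2, OR1N1, KCNK2, RNF222, COL12A1, FAM110B, EHHADH and RAD9B. The size of the last 7 of these was set by CFZ replicate 2. All 7 were still called higher without it, with log2 fold changes from 1.22 (FAM110B) to 1.5 (RAD9B). OR1N1, an olfactory receptor gene, was at 57, 73.3 and 61.2 CPM with DMSO and at 161, 2399 and 192 CPM with CFZ, so that its log2 fold change was 3.84 (SE 1.01) with all libraries and 1.46 without replicate 2. KCNK2, a potassium channel gene, was at 22.9, 21.3 and 24 CPM with DMSO and at 51.2, 765 and 62.8 CPM with CFZ. Without that library, a choice made after the values were seen, the 10 were HSPA6, HSPA1B, RSAD2, ENSG00000205021, CLU, DNAJB1, HSPH1, IFIT3, ENSG00000256515 and HSP90AA1. CLU, the extracellular chaperone clusterin, was at 9.99, 12.3 and 11.5 CPM with DMSO and at 92.6, 70.4 and 85.2 CPM with CFZ, a log2 fold change of 2.86 (SE 0.16).

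Among the 10 largest falls were KIR3DX1, NT5E, LINC02909, LOXL4, PTPN6, UBASH3B, MYLK, AGAP4 and RAP1GAP2, with log2 fold changes from −4.50 to −3.33. PTPN6, the phosphatase SHP-1 that dampens lymphocyte signalling, was at 148, 140 and 143 CPM with DMSO and at 17.7, 10.5 and 13 CPM with CFZ. All CFZ values lay far below any DMSO value, and the gene fell by 3.38 (SE 0.17). NT5E, the surface enzyme CD73, was at 9.25, 11.1 and 11.3 CPM with DMSO and at most 0.785 CPM with CFZ. All 31-base words of KIR3DX1, and 85% of those of AGAP4, occur in other genes, which leaves their counts uncertain.

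The effect of CFZ was then compared between 24 h and 6 h with the interaction of treatment and time in 12 libraries, which called 2157 of 10988 genes (19.6%), 8.05% with a higher and 11.6% with a lower effect at 24 h. Without CFZ replicate 2 of 24 h the count was 3387, with 12.9% higher and 17.7% lower. The 6 h cells were frozen overnight before extraction and the 24 h cells kept on ice, so that time and handling cannot be told apart. Of these libraries only CFZ replicates 2 and 3 of 24 h are of the second set, and a term for the set was not fitted here. Levels in this and the next paragraph are scaled over the 12 libraries. DNAJB1 was at 79.6, 86.8 and 81.2 CPM with DMSO and at 3376, 3245 and 3347 CPM with CFZ at 6 h, against 75.3, 74.5 and 70.4 CPM and 555, 508 and 557 CPM at 24 h. It was thus above DMSO at both times, and its log2 fold change was lower at 24 h by 2.45 (SE 0.13, adjusted p = 5.3e-08). The difference of 24 h minus 6 h was −3.28 for BAG3, −1.38 for HSPH1 and −0.88 for HSPA1B. Of 30 heat shock genes 21 had a lower effect at 24 h and 0 a higher one (22 and 1 without CFZ replicate 2), with list medians of 2.13 at 6 h and 0.92 at 24 h.

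HSPA5 was at 3511, 3534 and 3593 CPM with CFZ at 6 h and at 1283, 903 and 1273 CPM at 24 h, with DMSO between 1039 and 1209 CPM in all 6 libraries, a difference of effects of −1.45 (SE 0.17, adjusted p = 6.6e-05). DDIT3 was at 239, 225 and 252 CPM with CFZ at 6 h and at 99.3, 49.6 and 83.5 CPM at 24 h, against 70.8 to 83 CPM with DMSO, a difference of −1.70. Both were therefore high with CFZ at 6 h. At 24 h both lay above the DMSO range in CFZ replicates 1 and 3, DDIT3 barely so in replicate 3, and below it in replicate 2. With single libraries left out, the 24 h log2 fold change ran from 0.06 to 0.28 for HSPA5 and from −0.21 to 0.24 for DDIT3. Each was called in 2 of 17 alternative analyses, so a full return to the DMSO level is not shown. CDKN1A changed direction, at 721, 652 and 716 CPM with CFZ at 6 h, above 371 to 417 CPM with DMSO, and at 126, 128 and 140 CPM at 24 h, below 330 to 397 CPM with DMSO. Of 39 ATF4 and ISR genes 29 had a lower effect at 24 h and 2 a higher one (31 and 3 without CFZ replicate 2), with medians of 0.69 at 6 h and −0.11 at 24 h. SDC1 differed from DMSO by −2.02 at 6 h and −2.12 at 24 h, with a difference of −0.12 (SE 0.13, adjusted p = 0.57). PSMB5 had a difference of 0.17 (adjusted p = 0.58), which without CFZ replicate 2 was 0.33 (adjusted p = 0.035). In the 19S list 1 of 19 genes, PSMD12 (−0.64), had a lower effect at 24 h and 0 a higher one, while without CFZ replicate 2 there were 3 lower and 5 higher. ABCB1 rose by 0.36 at 6 h and by 1.76 at 24 h, a difference of 1.38 (SE 0.12).

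**Figure D3:**
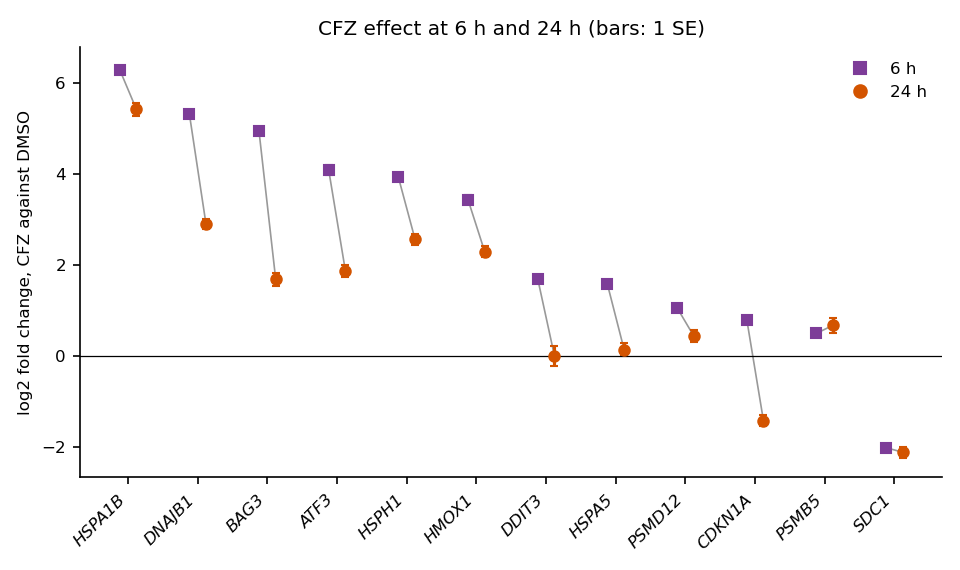
Log2 fold change of CFZ against DMSO (y axis) for 12 genes (x axis) at 6 h and at 24 h, with bars of 1 SE. The 24 h value is lower for chaperone and ISR genes and below 0 for CDKN1A, and the values of SDC1 and PSMB5 lie close together.

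Finally, CFZ was compared with the ProRS inhibitors at 24 h, without DMSO in the fit. The doses differed, at 10 nM for CFZ and 1 µM for the others, and CFZ replicate 1 is of another set than the NCP26 and HFG libraries. CFZ differed from NCP26 at 4736 of 10795 genes (43.9%, with 22.5% higher and 21.4% lower with CFZ) and from HFG at 2002 of 10551 (19%, with 9.92% higher and 9.05% lower). The counts without CFZ replicate 2 were 6676 (30.8% higher and 30% lower) and 3930 (18.7% and 17.9%). Without HFG replicate 1, 2 or 3 the count against HFG was 780, 564 and 605. HSPA1B, on the scale of the fit with NCP26, was at 2928, 2753 and 2679 CPM with CFZ and at 47.9, 45.1 and 42.2 CPM with NCP26, a log2 difference of 5.95 (SE 0.15), and the difference from HFG was 5.27. Heat shock genes were higher with CFZ than with NCP26 in 25 of 30 and lower in 1, and higher than with HFG in 21 of 30 and lower in 0. These counts were 27 and 2, and 26 and 0, without CFZ replicate 2. Genes of the ISR lay the other way, with 29 of 39 lower with CFZ than with NCP26 and 32 of 39 lower than with HFG, against 2 and 1 higher. In the ISR list 31 and 37 were lower and 3 and 1 higher without CFZ replicate 2. TRIB3 was at 107, 84.2 and 110 CPM with CFZ and at 390, 408 and 421 CPM with NCP26.

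Cell cycle genes were higher with CFZ than with either ProRS inhibitor. In the S-phase list 31 of 42 genes were higher than with NCP26 and 31 than with HFG (2 and 0 lower), and in the mitosis list 39 and 29 of 47 (1 and 0 lower). Leaving out CFZ replicate 2, 36 S-phase genes were higher in either comparison (3 and 0 lower), and 42 and 36 mitosis genes (1 and 0 lower). CCNB1, the mitotic cyclin, was at 124, 101 and 146 CPM with CFZ, at 26.3, 25.7 and 26.8 CPM with NCP26, and at 56, 60.8 and 57.7 CPM with HFG. Targets of p53 were lower with CFZ than with NCP26 in 20 of 27 and higher in 0, whereas against HFG 6 of 26 were lower and 3 higher (21 and 0, and 7 and 3, without CFZ replicate 2). CDKN1A was lower with CFZ than with NCP26 by a log2 difference of −1.10 (adjusted p = 1.8e-04) and higher than with HFG by 0.74 (adjusted p = 0.0041). SDC1 was at 610, 636 and 620 CPM with CFZ and at 2315, 2275 and 2383 CPM with NCP26, a log2 difference of −1.90, and its difference from HFG was −0.84. HMOX1 did not pass the test against NCP26 (−0.04, adjusted p = 0.80) and was higher than with HFG by 1.40.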

How the data were processed

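Polyadenylated RNA was made into directional libraries and both ends were read on a NextSeq 500. Reads were assigned by the authors with kallisto on words of 31 bases (31-mers), and the deposited table holds whole-number counts per gene without normalization. The submitters' processing notes name hg19 and the methods GRCh38, and the kallisto version, the annotation and the step that made whole numbers were not given in the sources used here. Since reads are divided between near-identical transcripts, a share of 31-mers in common with other genes is stated where it was 30% or more.

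Counts were fitted in R 4.3.3 with edgeR 4.0.16, using filterByExpr (minimum count 10, minimum total 15), TMM scaling and the two-sided quasi-likelihood F test with Benjamini-Hochberg adjustment over all tested genes. A gene was called at an adjusted p under 0.05. The SE is the size of the log2 fold change over the square root of F. Only the libraries compared entered a fit. With 3 against 3 libraries an exact permutation test of 1 gene cannot go below p = 0.1. Alternatives were DESeq2 1.42.0 (size factors and Wald test), no filter, an offset for GC content, all 36 AMO1 libraries in 1 fit, the replicate number as a block, each library left out, and the set of sample numbers as a term or as separate comparisons. A fit without the 74 genes high in CFZ replicate 2 and a robust fit were added after the data were seen. The script was tested on simulated counts. Same-numbered CFZ and DMSO libraries had correlated deviations of −0.03, 0.073 and 0.116, so the numbers were not taken to pair them.

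Named genes were a fixed set, the 10 largest called rises and falls averaging 5 CPM or more without overlap, the up to 4 largest changes in each gene list with members that went against the rest, and the 3 largest each way in the other comparisons. The lists were written from general knowledge, and the members and lists were chosen with earlier results of these data known. A list is described by its counts and median only. Some genes that the rule names are not reported here. None of 8 metallothionein genes passed the filter. Gene positions and types are from GENCODE v44, which held 19299 of 20167 identifiers, and promoters from RefSeq on GRCh38.p14, with 35116 windows of 27305 genes.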

Additional observations from a re-analysis of the deposited data

Results flagged for a closer look

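For the 12 genes of a fixed list the effect of CFZ at 24 h was tested against the effect at 6 h, and 10 of them differed. The same test called 19.6% of all 10988 genes, 11.6% with a lower effect at 24 h. The 12 were a chosen list and not a sample of all genes. The log2 fold change was lower at 24 h for BAG3 (−3.28), DNAJB1 (−2.45), CDKN1A (−2.24), ATF3 (−2.23), DDIT3 (−1.70), HSPA5 (−1.45), HSPH1 (−1.38), HMOX1 (−1.16), HSPA1B (−0.88) and PSMD12 (−0.64), each a difference of 24 h minus 6 h called by edgeR's interaction test with Benjamini-Hochberg adjustment. CDKN1A alone among the 10 was above DMSO at 6 h (0.80) and below it at 24 h (−1.43). The difference of times coincides with a difference in handling before extraction, and CFZ replicates 2 and 3 of 24 h are of another set than the other libraries. The part of either in these values was not tested.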

How the results depend on the processing

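Of the count of 2886 genes, the alternatives gave 5200 with all 36 AMO1 libraries in 1 fit, 1243 with a term for the set, 1633 for CFZ replicates 2 and 3 against NCP22, and 1537 to 5220 with single libraries left out, the highest without CFZ replicate 2 and the lowest without DMSO replicate 2. It stayed within 1.5 times with DESeq2 size factors (2881), the DESeq2 Wald test (2662), no filter (3015), the GC offset (2921), CFZ replicate 1 alone (4323), without the 74 genes (2936), the robust fit (2862) and the replicate block (2418). Counts with single libraries left out ran from 1507 to 3387 for the difference between times, from 3251 to 6676 against NCP26 and from 564 to 3930 against HFG, each highest without CFZ replicate 2. Without HFG replicate 1, 2 or 3 the HFG count of 2002 was 780, 564 and 605, and with all 36 libraries it was 4493. With the replicate block these counts were 1928, 4320 and 1486, and the numbers share no known source. The difference between CFZ libraries by set was 0 genes by edgeR and 1 by the DESeq2 Wald test, in fits whose spread includes the gap between CFZ replicates 2 and 3. No named gene called with all libraries changed sign under an alternative, and no call gained under one was opposite to the value with all libraries, while HSPA5, CHAC1, DDIT3, MYC, PRDM1 and TNFRSF17, not called with all libraries, had values on either side of 0. Of the repeats for named genes 2882 kept their side of the threshold, 267 lost and 46 gained a call; the cause was not tested. At 2387603 to 5005629 counts per library, genes of a few CPM rest on few counts.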
